A study of Mus musculus with 15 samples.

Results

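Thalamus and habenula marker transcripts were followed in dissected mouse hippocampus through 10 genes: Synpo2, Ramp3, Rora, Tcf7l2, Prkcd, Rgs16, Nxph4, Lef1, Zic1 and Gbx2. They were found by gene name on the array and make up 10 of its 27962 gene names, with 22 probes. They were chosen by their known expression in that tissue and by their measured levels on these same arrays and in all groups compared here. Their values and differences are therefore descriptions and carry no test.

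The thalamus and the habenula lie just below the dorsal hippocampus, close to the fimbria and the choroid plexus. Thalamic relay neurons are glutamatergic cells that send sensory and limbic signals to the cortex, and the habenula links the forebrain to midbrain monoamine centres. Both regions express sets of transcription factors and signalling proteins that are low in most hippocampal neurons, so such transcripts are used to judge how a dissection was cut. None of the 10 is exclusive to these regions. Lef1 is also made by brain endothelial cells, Zic1 by meningeal cells and the septum, Prkcd by scattered neurons elsewhere, and Rora and Tcf7l2 by other neurons and glia.

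The study followed extinction of contextual fear, in which mice shocked in a box are returned to it without the shock at intervals of 24 h. Hippocampal RNA came from male C57BL/6J mice, with 5 arrays in each of 3 groups. The E1 mice were sampled 1 h after extinction trial 1, and the ELF mice 1 h after a trial with low freezing, trial 5 per the design text. The control mice are called naive in the sample labels and described in the design text as placed in the context without a shock, and the labels give no time for them. No transgene or drug is named for any group. In bulk tissue, fewer cells of a type and less RNA per cell cannot be told apart.

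Each probe on the array is a 60-base oligonucleotide. The first 30 bases are shown for the members on which the results turn, to make clear that Synpo2 was read at 3 separate places, and that the 2 Zic1 probes are nearly the same measurement. Capitals mark bases shared by both Zic1 probes within the window shown.
Synpo2, probe A_51_P119776: cgatgtctagagactttgtgtaaagacttt
Synpo2, probe A_52_P223127: cacaaatgcgcaggcttcttctgtgtactc
Synpo2, probe A_52_P647260: caatgggagcactcagaaatgttcaaagca
Ramp3, probe A_51_P227090: cgattctgtgtccagtgtgggctggagctg
Rgs16, probe A_51_P249286: gagagaactcttttaagtataatattgtgt
Nxph4, probe A_51_P424709: tcccgttctgcgtgccccatgtcagtcctg
Zic1, probe A_52_P428654: aattcctagtttccatatttATCCGCATGT
Zic1, probe A_51_P194230: ATCCGCATGTaaagggtctggtttattcat
In the mm7 coordinates of the file headers the Synpo2 probes lie on the minus strand at chr3:122949681-122949740, chr3:122951209-122951268 and chr3:122945955-122946014, in the order printed. The Ramp3 probe lies at chr11:6629300-6629359 on the plus strand, the Rgs16 probe at chr1:153706094-153706153 on the plus strand, and the Nxph4 probe at chr10:127027037-127027096 on the minus strand. The Zic1 probes lie on the minus strand at chr9:90989346-90989405 and chr9:90989326-90989385 and overlap by 40 bases. An annotation of exons and untranslated regions for that build was not used here.

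Levels below are log2 intensities relative to the 75th percentile of the array, so 0 is the intensity of a fairly bright spot. The 75th percentile lay between 1441 and 2932, and between 83.51% and 97.19% of spots were well above background. Of the 10 genes, 9 were well above background on all 15 arrays, Gbx2 on 9 arrays, and no probe of theirs was saturated. All 11 markers of hippocampal neurons that were measured were well above background on all 15 arrays, and their summed level ranged only from 5.93 to 6.23. The array identifiers place the arrays on 4 slides: 4 control arrays on slide 1, control 5 with E1 1, E1 2 and E1 3 on slide 2, E1 4 and E1 5 with ELF 3 and ELF 4 on slide 3, and ELF 1, ELF 2 and ELF 5 on slide 4. Group and slide overlap heavily, so values within slide 2 (E1 and control) and slide 3 (ELF and E1) are also given below. Array ELF 3 stood apart in choroid plexus transcripts: Ttr, the transthyretin gene of that tissue, was at -1.81 there and between 3.35 and 4.70 on the other 14 arrays.

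Synpo2, Ramp3 and Rgs16 had higher levels on every E1 array than on any control array. Synpo2 encodes an actin-binding protein of the synaptopodin family. Its brightest probe was at -1.70, -1.55, -1.61, -1.60 and -1.59 on control arrays 1 to 5, at -0.12, -1.31, -0.48, -0.06 and -1.27 on E1 arrays 1 to 5, and at -1.68, -1.46, -1.79, -2.01 and -1.55 on ELF arrays 1 to 5. Controls were tightly grouped, E1 arrays 1, 3 and 4 stood well above them, E1 2 and E1 5 were only slightly higher, and ELF overlapped control but not E1. The E1 mean exceeded the control mean by 0.96 (SE 0.22, n = 5 against 5), a fold of 1.95. ELF differed from control by -0.09 (SE 0.22) and from E1 by -1.05 (SE 0.22).

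The other 2 Synpo2 probes, both dimmer, did not show the split among the E1 arrays. Probe A_52_P223127 was at -3.14, -3.43, -3.35, -3.16 and -2.86 on E1 arrays 1 to 5, against -3.70 to -3.38 in control. Probe A_52_P647260 was at -4.38, -4.49, -4.50, -4.51 and -4.21 on E1 arrays 1 to 5, against -5.38 to -4.22 in control. Both overlapped between E1 and control, with differences of 0.38 (SE 0.26) and 0.44 (SE 0.17). On these probes E1 5, one of the lower E1 arrays by the brightest probe, was the highest of its group. With the 3 probes averaged, the difference between ELF and E1 was -0.40 in place of -1.05, and that between ELF and control was 0.20 in place of -0.09. Statements on Synpo2 therefore rest on a single probe.

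**Figure D1:**
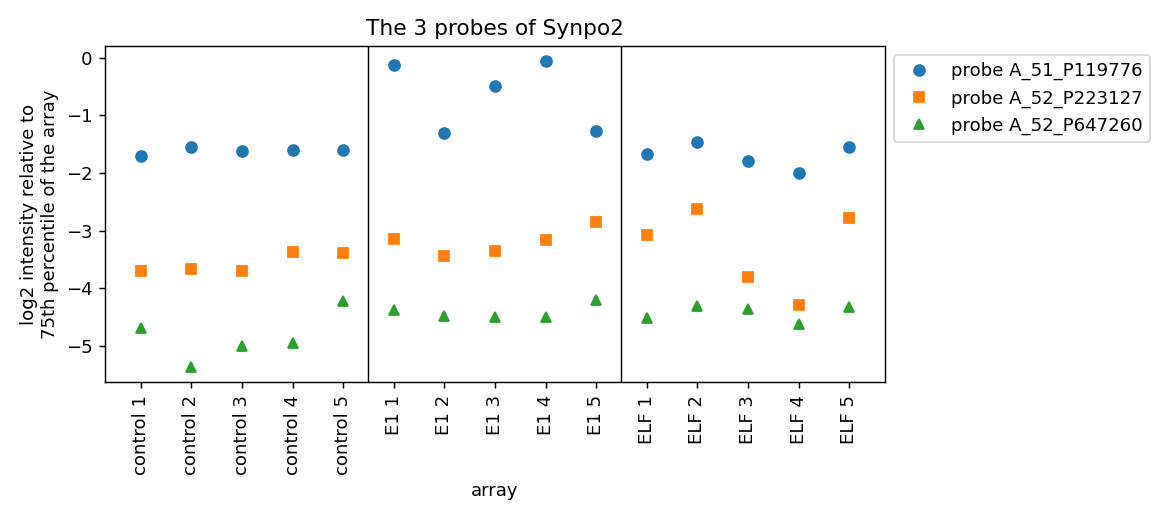
Log2 intensity of the 3 Synpo2 probes relative to the 75th percentile of the array, on each of 15 arrays, with vertical lines between control, E1 and ELF. Only the brightest probe, A_51_P119776, separates E1 1, E1 3 and E1 4, at -0.48 to -0.06, from the other arrays.

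Ramp3 encodes an accessory protein that partners calcitonin-family receptors and sets which peptide they answer to. Its level was -1.24, -1.06, -1.29, -1.21 and -1.04 on control arrays 1 to 5, -0.18, -0.80, -0.01, -0.16 and -0.39 on E1 arrays 1 to 5, and -0.78, -0.38, -0.66, -1.01 and -0.58 on ELF arrays 1 to 5. Both extinction groups lay above all controls, ELF by the smaller margin, and the 2 extinction groups overlapped. The difference was 0.86 (SE 0.15) between E1 and control, a fold of 1.82, 0.49 (SE 0.15) between ELF and control, and -0.38 (SE 0.15) between ELF and E1.

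Rgs16 encodes a regulator that speeds the switching off of G proteins, and it is known from thalamic neurons. Its level was -0.54, -0.49, -0.46, -0.57 and -0.49 on control arrays 1 to 5, 0.32, -0.34, 0.37, 0.45 and 0.05 on E1 arrays 1 to 5, and -0.34, -0.07, -0.26, -0.30 and 0.18 on ELF arrays 1 to 5. The order resembled that of Ramp3: control lowest and narrow, E1 wide with E1 2 closest to control, ELF between and overlapping E1. E1 exceeded control by 0.68 (SE 0.14), a fold of 1.60, ELF exceeded control by 0.35 (SE 0.14), and ELF differed from E1 by -0.33 (SE 0.14).

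**Figure D2:**
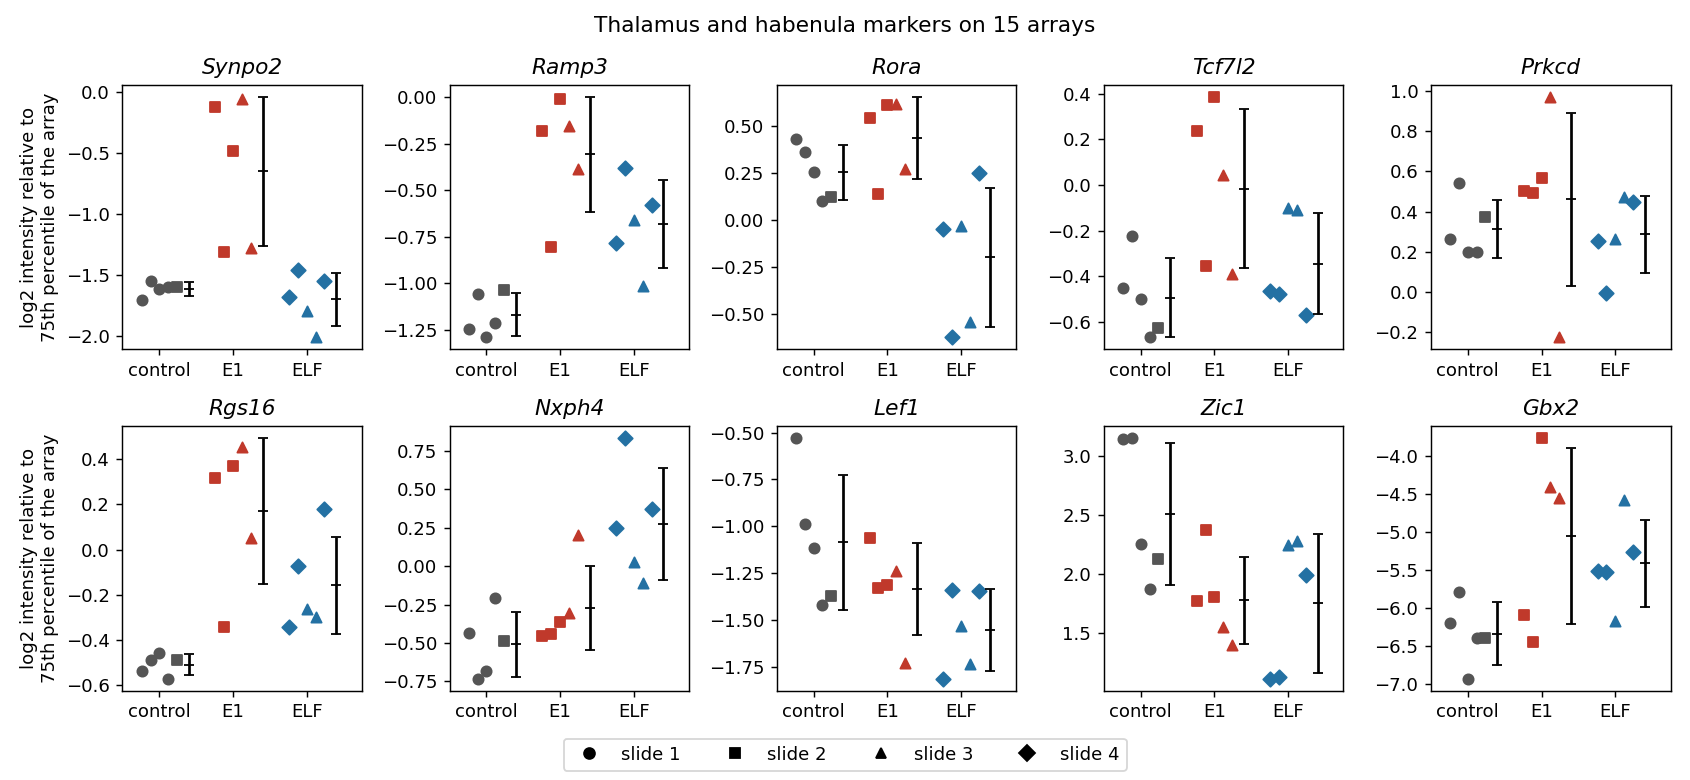
Log2 intensity of the 10 markers relative to the 75th percentile of the array, 1 point per array, with marker shape for the slide and with the mean ± SD of 5 arrays beside each group (each panel has its own scale). Synpo2, Ramp3 and Rgs16 are higher on all 5 E1 arrays than on all 5 control arrays, and Nxph4 is highest in ELF.

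Among the transcription factors, Rora and Tcf7l2 shared the high values of E1 arrays 1, 3 and 4 but overlapped between E1 and control. Rora, a nuclear receptor, was at 0.43, 0.36, 0.25, 0.10 and 0.12 on control arrays 1 to 5, 0.54, 0.14, 0.61, 0.62 and 0.27 on E1 arrays 1 to 5, and -0.05, -0.62, -0.03, -0.54 and 0.25 on ELF arrays 1 to 5. E1 differed from control by 0.18 (SE 0.16), ELF from control by -0.45 (SE 0.16) and ELF from E1 by -0.63 (SE 0.16). The lowest Rora level was that of ELF 2, on all 3 probes. ELF 4 was next on the brightest probe only, and was at -0.04 on probe A_51_P477779, within the range of the other ELF arrays. All 3 Rora probes, 1 of them much dimmer, gave an E1 minus control difference of 0.18, and differences between ELF and control of -0.36, -0.45 and -0.56.

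Tcf7l2, an HMG-box partner of β-catenin and a developmental regulator of thalamus and habenula, was at -0.45, -0.22, -0.50, -0.66 and -0.63 on control arrays 1 to 5. It was at 0.24, -0.35, 0.39, 0.05 and -0.39 on E1 arrays 1 to 5, and at -0.46, -0.48, -0.10, -0.11 and -0.57 on ELF arrays 1 to 5. E1 2 and E1 5 fell within the control range, and ELF 3 and ELF 4 of slide 3 lay above the ELF arrays of slide 4. On probes A_52_P146043 and A_52_P316355 the same 2 arrays lay below those of slide 4, so the order of the slides depended on the probe. The difference was 0.48 (SE 0.16) between E1 and control, 0.15 (SE 0.16) between ELF and control, and -0.33 (SE 0.16) between ELF and E1. Its 4 probes gave E1 minus control differences from 0.12 to 0.48, the smallest on the dimmest probe, which was well above background on 14 arrays.

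Gbx2, a homeobox gene of early thalamic neurons, was close to background. It was well above background on 2 control arrays, 3 E1 arrays and 4 ELF arrays. Levels were -6.20, -5.79, -6.93, -6.39 and -6.40 on control arrays 1 to 5, -6.10, -6.45, -3.76, -4.40 and -4.55 on E1 arrays 1 to 5, and -5.51, -5.53, -6.17, -4.58 and -5.27 on ELF arrays 1 to 5. The 3 highest values were those of E1 3, E1 4 and E1 5, and E1 1, high for the genes above, was within the control range. The E1 minus control difference of 1.29 (SE 0.46) and the ELF minus control difference of 0.93 (SE 0.46) set these dim values against controls of which 3 were not well above background. ELF differed from E1 by -0.36 (SE 0.46). The second Gbx2 probe was well above background on 1 array and was not tested.

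Lef1 and Zic1 had lower means in both extinction groups than in control. Lef1, the TCF/LEF relative of Tcf7l2, was at -0.53, -0.99, -1.12, -1.42 and -1.37 on control arrays 1 to 5, -1.06, -1.33, -1.31, -1.24 and -1.73 on E1 arrays 1 to 5, and -1.81, -1.34, -1.53, -1.73 and -1.34 on ELF arrays 1 to 5. The groups overlapped, and control 1 was the highest of all 15. The differences were -0.25 (SE 0.17) between E1 and control, -0.47 (SE 0.17) between ELF and control, and -0.22 (SE 0.17) between ELF and E1. The 2 measured probes disagreed in sign for E1 against control, the dimmer one giving 0.09 (SE 0.15), and the third Lef1 probe was well above background on 3 arrays only and was not tested.

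Zic1, a zinc-finger factor, was at 3.14, 3.15, 2.25, 1.87 and 2.13 on control arrays 1 to 5, 1.77, 2.37, 1.80, 1.55 and 1.40 on E1 arrays 1 to 5, and 1.11, 1.13, 2.24, 2.28 and 1.99 on ELF arrays 1 to 5. Control 1 and control 2 were the highest, and ELF fell apart into ELF 1 and ELF 2 at the bottom and the other 3 within the control range. Its overlapping probes gave -0.73 (SE 0.31) and -0.77 (SE 0.31) for E1 minus control, and the brighter probe gave -0.76 (SE 0.31) for ELF minus control and -0.03 (SE 0.31) for ELF minus E1.

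Prkcd, a protein kinase C isoform activated by diacylglycerol that is abundant in thalamic relay neurons, differed little between groups. It was at 0.26, 0.54, 0.20, 0.20 and 0.37 on control arrays 1 to 5, 0.50, 0.49, 0.57, 0.97 and -0.23 on E1 arrays 1 to 5, and 0.25, -0.01, 0.26, 0.47 and 0.45 on ELF arrays 1 to 5. E1 held both the highest level, on E1 4, and the lowest, on E1 5. The differences were 0.15 (SE 0.18), -0.03 (SE 0.18) and -0.18 (SE 0.18) for E1 minus control, ELF minus control and ELF minus E1, and the second probe gave 0.18 (SE 0.22) for E1 minus control.

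Nxph4, a secreted neurexophilin of the family that binds α-neurexins, had a pattern of its own. It was at -0.44, -0.73, -0.68, -0.21 and -0.49 on control arrays 1 to 5, -0.46, -0.44, -0.37, -0.30 and 0.20 on E1 arrays 1 to 5, and 0.25, 0.83, 0.02, -0.11 and 0.37 on ELF arrays 1 to 5. All ELF arrays exceeded all controls, whereas E1 overlapped control, and E1 5 stood well above the other 4 E1 arrays. The difference was 0.78 (SE 0.18) between ELF and control, a fold of 1.72, 0.24 (SE 0.18) between E1 and control, and 0.55 (SE 0.18) between ELF and E1. Within ELF, the arrays of slide 4 had a mean of 0.49 and those of slide 3 a mean of -0.04.

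In E1 against control, 8 of the 10 genes had a higher mean and 2 a lower mean, with a median difference of 0.36, beside 0.04 over all 26117 genes tested, of which 58.8% had a higher mean. In the limma fit over all genes (Benjamini-Hochberg adjusted p under 0.05) 1 of the 10, Ramp3, was called higher, where 0.188% of all genes were called in either direction and 0.134% were called higher. With the replicate number as a block, none of the 10 was called with all 15 arrays, and 4 were called with only the arrays of these 2 groups (Ramp3, Rgs16, Synpo2 and Zic1), a fit in which 12.3% of all genes were called. Without control 5 the call extended to 3 genes (Ramp3, Rgs16 and Synpo2), beside 4.28% of all genes, and without E1 2 to 2, beside 0.157%. Without any 1 of the other 8 arrays 0 were called, beside 0.0306% to 0.0842% of all genes. Of the 10, 3 had E1 levels all above control, against 2.11% of all genes. Nothing is read from these shares, since the same levels were in view when the genes were chosen.

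In ELF against control, 5 of the 10 genes had a higher mean and 5 a lower one. Their median difference was 0.06, beside 0.10 over all genes, of which 65% had a higher mean. Only Nxph4 was called, beside 2.15% of all genes called in either direction and 1.49% called higher, and 3 of the 10 genes (Ramp3, Rgs16 and Nxph4) had ELF levels all above control, beside 2.53% of all genes. Without ELF 4, Nxph4 and Ramp3 were called, which is near the 19.8% of all genes called in that fit. Without control 5 or ELF 3 only 1 gene was called, beside 8.08% and 2.25% of all genes. Without any 1 of the other 7 arrays 0 were, beside 0% to 0.816% of all genes. When arrays were shifted by the median in place of the 75th percentile, the median over all genes moved from 0.10 to -0.0013, and the median of the 10 became -0.042. The sign of no single gene among the 10 changed with that shift.

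In ELF against E1, 9 of the 10 genes had a lower mean and only Nxph4 a higher one, with a median difference of -0.33 beside 0.05 over all genes. None was called, as against 0.00766% of all genes called in either direction. At an unadjusted p under 0.05, the same fit took 5 of the 10 and 9.64% of all genes. It took 6 in E1 against control and 6 in ELF against control, beside 13.1% and 23% of all genes. Nothing is read from these counts, since the same levels were in view when the genes were chosen. Synpo2 alone had ELF levels all below E1, beside 0.953% of all genes. The comparison of ELF with E1 shares the E1 arrays with the first, and the ELF arrays with the second.

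**Figure D3:**
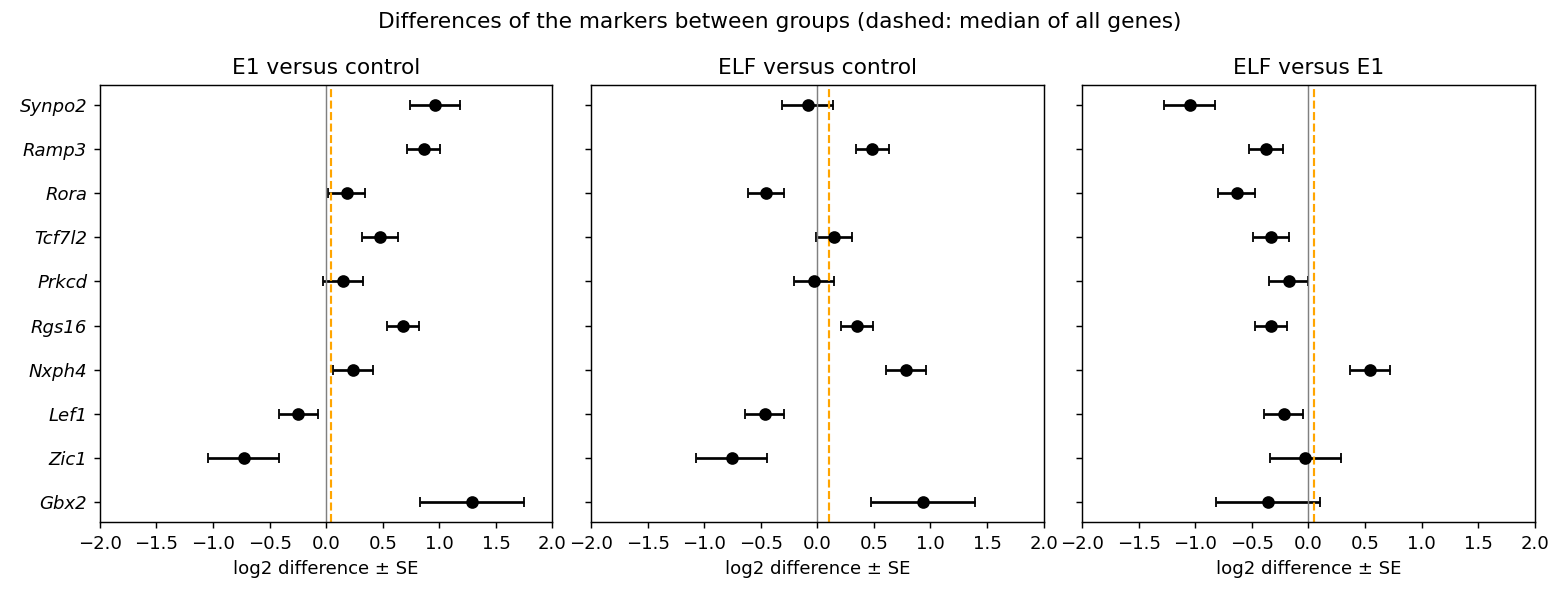
Difference of each marker in log2 units with its standard error from the limma fit of 15 arrays, for E1 minus control, ELF minus control and ELF minus E1. Dashed lines mark the median of all genes tested, at 0.04, 0.10 and 0.05, and Synpo2, Ramp3, Rgs16 and Gbx2 lie farthest above it in E1 minus control.

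Within slide 2, the mean of 3 E1 arrays exceeded the single control array for 9 of the 10 genes, with a median of 0.46 against -0.04 over all genes. The difference there was 0.96 for Synpo2, 0.71 for Ramp3, 0.60 for Rgs16, 0.72 for Tcf7l2, 0.31 for Rora, 0.15 for Prkcd and 0.07 for Nxph4. The 0.96 of Gbx2 came from E1 3 alone and was 0.12 without that array, with values near background. For Zic1 the difference shrank to -0.15, and for Lef1 it turned to 0.14. With slide as a fixed block, the E1 minus control difference is that of slide 2, and none of the 10 genes was called.

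Within slide 3, 2 ELF and 2 E1 arrays could be compared. Synpo2 was lower in ELF by -1.24, Ramp3 by -0.57, Rgs16 by -0.53 and Rora by -0.73, beside a median of -0.18 over all genes. Tcf7l2 differed by 0.07 and Nxph4 by 0.01, and Zic1 was 0.78 higher in ELF. No slide held both ELF and control arrays, so a block for slide links them only through E1. That fit gave 0.07 for Nxph4, 0.14 for Ramp3, 0.07 for Rgs16 and 0.64 for Zic1, where the fit without the block gave 0.78, 0.49, 0.35 and -0.76. The part of the slide in the ELF minus control differences cannot be told apart from that of the group.

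E1 arrays differed among themselves in the same order for most of the genes. E1 1, E1 3 and E1 4 were the 3 highest of the 5 for 7 of the 10 genes, all but Nxph4, Zic1 and Gbx2. That count takes the brightest probe of each gene: of the other 10 probes measured, 2 showed the order (1 of Rora and 1 of Lef1), and none of the other Synpo2, Tcf7l2 and Prkcd probes did. For the brightest Prkcd probe it rests on 0.50 for E1 1 against 0.49 for E1 2. Over 26091 genes with a value on every E1 array, this order, noticed in the data, held for 6.75%. It held for 5 of 16 other thalamus genes and for 0 of 11 other habenula genes. The choice of these 7 genes itself puts E1 1 and E1 3 above E1 2 (slide 2), and E1 4 above E1 5 (slide 3). Nothing about the slides is read from that. E1 5 had the lowest 75th percentile of all arrays, 1441, and E1 2 had 2317, within the range of the other arrays. The part of these intensities in the differences among E1 arrays was not tested.

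**Figure D4:**
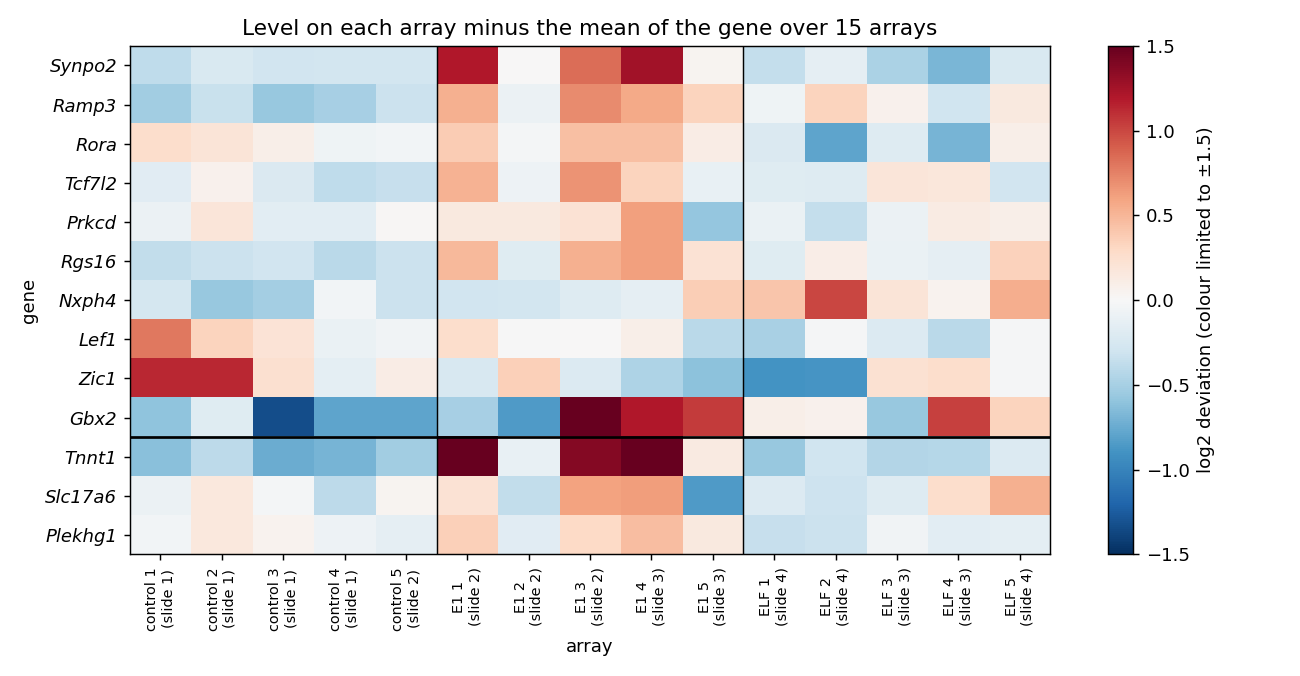
Level of each marker on each array minus its mean over the 15 arrays, in log2 units (colour, limited to 1.5 either way), with the arrays in columns by group. Below the thick line are Tnnt1, Slc17a6 and Plekhg1, other thalamus genes, and for most rows E1 1, E1 3 and E1 4 are the reddest columns.

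After each group mean was taken out, the 45 pairs of the 10 genes had a median Pearson's r of 0.33 over the 15 arrays, from -0.65 to 0.81, and 34 pairs were above 0. The closest pairs were Ramp3 with Rgs16 at 0.81, Synpo2 with Rgs16 at 0.80 and Synpo2 with Ramp3 at 0.75. All pairs share the same arrays and libraries. Nxph4 went the other way from some of the genes, at -0.65 with Prkcd, -0.63 with Zic1, -0.63 with Tcf7l2, -0.26 with Rora and -0.12 with Lef1. Nxph4 was at 0.34 with Ramp3, 0.14 with Rgs16, 0.12 with Gbx2 and -0.03 with Synpo2. Its mean r with the other 9 genes was -0.19, and that of Zic1 was -0.00, whereas that of Rgs16, the highest, was 0.40. The mean r of each of the other 8 genes lay between 0.17 and 0.40. The value of Zic1 averages genes on both sides, from 0.49 with Lef1, 0.39 with Tcf7l2, 0.38 with Prkcd and 0.22 with Rora to -0.28 with Synpo2, -0.35 with Ramp3 and -0.63 with Nxph4.

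The promoters of Synpo2, Ramp3 and Rgs16 are shown because these genes made the pairs with the highest r above, for Synpo2 on its brightest probe. Each is the 250 bases before the start of the gene, from RefSeq on GRCm38.p6.
Synpo2, chr3:123236150-123236399, minus strand: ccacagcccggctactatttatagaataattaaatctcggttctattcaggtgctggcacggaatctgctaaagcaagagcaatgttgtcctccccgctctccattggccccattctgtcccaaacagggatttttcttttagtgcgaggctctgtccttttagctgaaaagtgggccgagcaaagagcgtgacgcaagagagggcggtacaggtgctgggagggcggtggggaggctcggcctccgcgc
Ramp3, chr11:6658283-6658532, plus strand: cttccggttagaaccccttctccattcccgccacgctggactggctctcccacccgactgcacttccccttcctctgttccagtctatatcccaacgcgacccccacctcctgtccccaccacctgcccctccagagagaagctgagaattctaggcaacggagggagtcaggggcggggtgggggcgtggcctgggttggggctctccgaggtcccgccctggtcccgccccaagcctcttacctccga
Rgs16, chr1:153740103-153740352, plus strand: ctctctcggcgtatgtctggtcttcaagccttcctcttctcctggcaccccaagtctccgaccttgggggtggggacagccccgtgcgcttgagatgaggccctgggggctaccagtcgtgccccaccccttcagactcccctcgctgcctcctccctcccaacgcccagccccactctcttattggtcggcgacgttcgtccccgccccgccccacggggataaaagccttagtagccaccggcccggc
Their GC content was 54.4%, 65.2% and 66.4%. Since Tcf7l2 and Lef1 bind the letters CTTTGA and Rora binds AGGTCA, these were searched on both strands in the window from 250 bases before to 50 after each start. CTTTGA was in 16% of 32851 mouse promoters and in 2 of the 14 promoters of 9 of these genes, those of Lef1 and Prkcd. AGGTCA was in 16.3% of all promoters and in 0 of the 14. The table used has no promoter for Nxph4. A match is a string of letters, not a bound site, and no match speaks only of this window.

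Of 28 other thalamus and habenula genes listed, all 28 were on the array and 27 were measured. Chrna3, a nicotinic receptor subunit gene of the habenula, was well above background on 1 array and was not tested. In limma (Benjamini-Hochberg adjusted p under 0.05 over all genes), 0 of the 27 were called in each comparison, while 8, 7 and 5 had an unadjusted p under 0.05 in E1 against control, ELF against control and ELF against E1, beside 13.1%, 23% and 9.64% of all genes. In E1 against control 8 of the 16 thalamus genes had a higher mean and 8 a lower one, with a median of -0.0046, while 10 of 11 habenula genes had a higher mean, with a median of 0.32. Over all genes 58.8% had a higher mean and the median was 0.04. With the replicate number as a block, 0 of the 27 were called in that comparison over all 15 arrays and 10 over the arrays of the 2 groups, where 12.3% of all genes were called. Without control 5 or E1 2, 3 and 2 were called in the fit without a block, beside 4.28% and 0.157% of all genes. In ELF against control, 6 were called without ELF 4 and 3 without control 5, beside 19.8% and 8.08% of all genes. The list was drawn up with earlier results of these arrays known.

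The 3 largest differences in E1 against control were those of Shox2, Tnnt1 and Zic4. Tnnt1, a troponin T gene that marks thalamic neurons in the brain, was at -1.96, -1.73, -2.08, -2.03 and -1.86 on control arrays 1 to 5, 0.37, -1.44, 0.04, 0.50 and -1.20 on E1 arrays 1 to 5, and -1.90, -1.64, -1.77, -1.77 and -1.54 on ELF arrays 1 to 5. It repeated the order of Synpo2 on E1, with no overlap with control, and its difference of 1.58 (SE 0.32, limma adjusted p = 0.0554) did not pass the threshold. Tnnt1 was called with normexp background, quantile normalization, the median shift and the authors' table, beside 0.165%, 1.71%, 1.15% and 0.934% of all genes. It was also called without control 5 or without E1 2, beside 4.28% and 0.157%, but not with slide as a fixed or random block. Shox2, a homeobox gene of thalamic neurons, was well above background on 4 of 5 E1 arrays, 3 of 5 ELF arrays and no control array. Its limma difference was 1.71 (SE 0.50, adjusted p = 0.144) in E1 against control and 0.09 (SE 0.50, adjusted p = 0.93) in ELF against control. As a bound, E1 was at least 2.94-fold above control. The bound sets the E1 mean against the higher, on each control array, of the probe's own signal and the lowest signal well above background. Zic4, a relative of Zic1, differed by -0.94 (SE 0.23, limma adjusted p = 0.0876), on the same side as Zic1.

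Between ELF and control, Plcb4, a phospholipase C gene strong in thalamus, came nearest the threshold at -1.09 (SE 0.27, limma adjusted p = 0.0527). Of the 11 habenula genes measured, 10 had higher means in ELF than in control, with a median of 0.44 beside 0.10 over all genes. The higher means went with the slide. Against the control mean, the 3 ELF arrays of slide 4 were higher for 10 of 11 genes, with a median of 0.87, and the 2 of slide 3 for 4 of 11, with a median of -0.11. Within slide 2 E1 was above control for 3 of 11, with a median of -0.05, although 10 of 11 were higher in E1 over all arrays. Within slide 3 ELF was above E1 for 1 of 11, with a median of -0.67. Most of these genes were dim: 9 of the 11 were well above background on all 15 arrays, Slc18a3 on 14 and Chrnb4 on 9. Over all spots, 95.79% to 97.19% were well above background on the ELF arrays of slide 4, against 88.6% on ELF 3 and 83.51% on ELF 4. The part of this in the habenula levels was not tested. For Pou4f1, the transcription factor of habenular neurons, ELF minus control was 0.47 (SE 0.21, limma adjusted p = 0.209), and for Gpr151, a habenular orphan receptor, it was 0.67 (SE 0.25, adjusted p = 0.135). The summed level of the habenula list lay between 0.60 and 0.94 in control, 0.76 and 1.34 in E1, and 0.58 and 1.57 in ELF, so the groups overlapped. Array ELF 2 had the highest sum, 1.57, and was also the array with the most Nxph4. The part of the habenula list in the Nxph4 levels was not tested.

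The 10 genes most like the markers in variation between arrays were sought among 26042 other genes, by Pearson's r with the mean of the standardised markers after removal of group means. In order they were the transcript BU920841, Tnnt1, Inadl (now Patj), Slc17a6, the transcript AK037075, Slitrk6, Plekhg1, Gsta2, Centd1 and Pglyrp1, with r from 0.88 to 0.76 over 15 arrays. Tnnt1, Slc17a6 (the vesicular glutamate transporter of thalamic neurons) and Plekhg1 are 3 of the 16 other thalamus genes, at r of 0.87, 0.80 and 0.76. The other 13 ranged from 0.45 for Shox2 down to -0.52 for Calb2, the calretinin gene, with Lhx9, a LIM homeobox gene, at -0.29. Slc17a6 nonetheless differed little between groups, by 0.11 (SE 0.26, limma adjusted p = 0.907) in E1 against control, and E1 5 had the lowest of its 15 levels, at -1.18. The transcript BU920841 was 1.29 higher in E1 than in control, and Slitrk6, a neuronal membrane protein gene, 0.68.

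**Figure D5:**
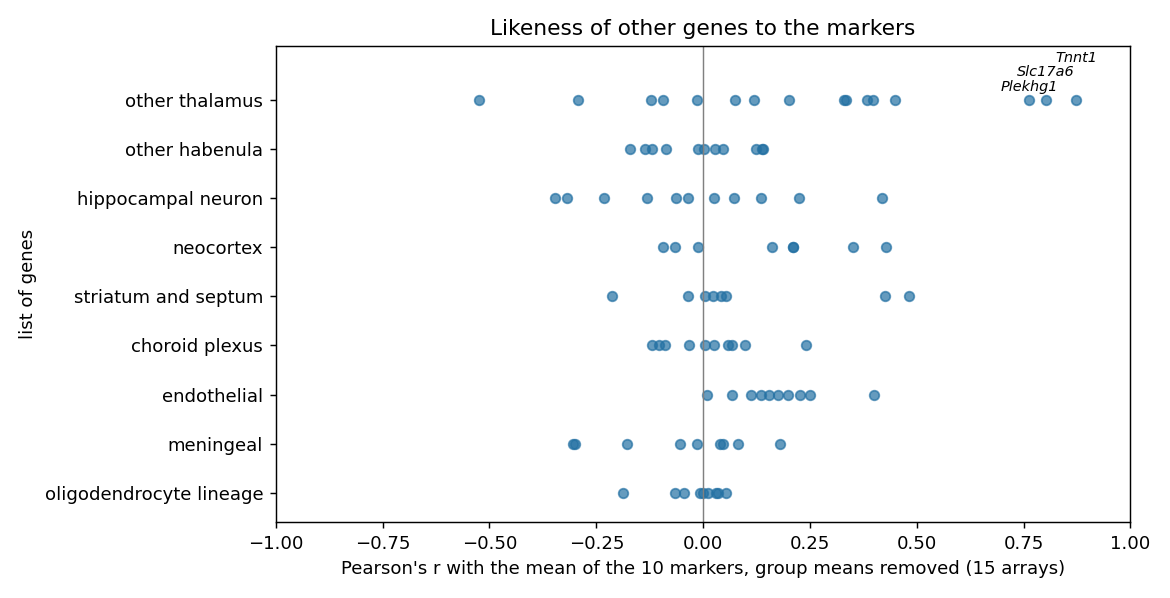
Pearson's r of each gene of 9 lists with the mean of the 10 markers over 15 arrays, after removal of the group means, 1 point per gene. Tnnt1, Slc17a6 and Plekhg1 of the other thalamus list lie at 0.76 or above and no gene of the habenula list does.

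Other tissue around the hippocampus was read from lists of marker genes. Endothelial genes had lower means in E1 for 10 of 10 and in ELF for 9 of 10. In E1, 2 fell by limma, namely the tight-junction gene Cldn5 (-0.93, SE 0.14, adjusted p = 0.0197) and the receptor gene Kdr (-0.86, SE 0.16, adjusted p = 0.0489), where 0.0536% of all genes were called lower. In ELF, 6 fell, namely Abcb1a, Flt1, Kdr, Cldn5, Slco1c1 and Emcn, with differences of -1.20 to -0.70, where 0.662% of all genes were called lower. With slide as a fixed or a random block, 0 of the 10 endothelial genes were called in either comparison, and the E1 median moved from -0.66 to -0.26 and -0.48. The fixed block called 0.0153% of all genes in E1 and 0.325% in ELF, and the random block 0% in both. With the replicate number as a block over all 15 arrays, 0 were called in E1 and 3 in ELF, beside 0.0345% and 0.831% of all genes. With only the arrays of the 2 groups, 1 and 0 were called, beside 0.126% and 0% of all genes. With both that restriction and the replicate block, 5 and 0 were called, beside 12.3% and 0%. Leaving out 1 array gave 0 to 5 calls in E1 and 0 to 7 in ELF. The 0 in ELF came without control 2 or control 3, where 0% of all genes were called. The highest counts came without control 5, beside 4.28% of all genes in E1 and 8.08% in ELF. In ELF the count was as high without ELF 4, beside 19.8%. Quantile normalization, the median shift and the authors' table gave 8, 8 and 9 calls in ELF, beside 6.53%, 4.61% and 6.08% of all genes. Normexp background gave 5 in ELF, beside 2.44%, and probes averaged gave 5, beside 1.73%. Their summed level was 3.39 to 4.20 in control, 2.71 to 3.18 in E1 and 2.70 to 2.90 in ELF, with no overlap between control and either other group. Lef1, which endothelial cells also make, had lower means in the same groups, and the part of these cells in its level was not tested.

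Beside Zic1, 8 of 9 meningeal genes had lower means in E1 than in control, and 7 of 9 in ELF. In limma 0 were called and 2 had an unadjusted p under 0.05 in each of these comparisons, beside 13.1% and 23% of all genes. Their summed level was 5.44 to 6.02 in control, 5.43 to 5.92 in E1 and 5.43 to 5.69 in ELF. Choroid plexus genes were lower in all 10 cases in both, with a median of -0.27 in E1 and -1.32 in ELF. Again 0 were called, while 0 and 9 had an unadjusted p under 0.05, beside the same 13.1% and 23% of all genes. Without ELF 3 the ELF median was -0.70, with 10 of 10 still below control. Leaving out ELF 4 gave 5 called genes, in a fit that called 19.8% of all genes. Within slide 2, 4 of the 10 were higher in E1 than in control, with a median of -0.03. Their summed level reached 1.44 on ELF 3 and lay between 4.76 and 5.86 on the other arrays. Zic1 on ELF 3 was at 2.24, among the higher ELF levels. The part of meningeal and choroid tissue in the Zic1 levels was not tested.

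In the lists of neocortex, of striatum and septum and of the oligodendrocyte lineage, 0 of 8, 0 of 8 and 0 of 9 genes were called by limma in each comparison. In the order given, 0, 2 and 1 of them had an unadjusted p under 0.05 in E1 against control, 0, 0 and 1 in ELF against control, and 1, 0 and 2 in ELF against E1. Over all genes the shares were 13.1%, 23% and 9.64% in these comparisons. In E1 against control their median differences were 0.02, 0.08 and 0.12. In hippocampal neuron markers, 0 of 11 were called and 1 had an unadjusted p under 0.05 in E1 against control, with a median of -0.01.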

How the data were processed

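Total RNA of 15 hippocampus samples (5 control, 5 E1, 5 ELF) was hybridised to 1-colour Cy3 Agilent arrays read with Agilent Feature Extraction 9.5.3.1, per the file headers. The processed intensity the authors deposited is background-subtracted within each array, per the file headers, which also give 0 or 1 flags and probe positions on mm7. A value table deposited by the authors is on a log2 scale, following log2 mean intensity (r at least 0.996, medians 8.683 to 8.916). Its scaling across arrays was not given in the sources used here.

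Control spots (1639 of 45018) and outlier spots were left out, log2 intensities were set relative to the 75th percentile of the array, and spots of a probe were averaged (41174 probes). Probes well above background on at least 5 of 15 arrays were kept (38458), and a gene took its brightest probe (26117 genes). This favours bright transcripts, and dim ones are less precise. limma 3.58.1 in R 4.3.3 was fitted over all arrays without a covariate, with Benjamini-Hochberg adjustment. The fit was also run on simulated arrays with independent noise and no slide effect, so that run cannot speak on slides. With slide as a random block, the consensus correlation within slides was 0.47. The labels call the samples of a group biological replicates. The members and lists were chosen with earlier results of these data known. Named are all 10 markers with every probe, called genes of the other thalamus and habenula list and its 3 largest differences in E1 against control, the 10 genes most like the markers, and called genes or 1 or 2 best-known markers of other lists. Further genes (Plcb4, Plekhg1, Slc17a6 and the habenula genes described) were picked after their values were seen or as known markers. A gene of the neocortex list is not reported here.

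Replicate numbers were checked as a pairing: in E1 and control, deviations of same-numbered arrays correlated at 0.14 to 0.30 in all 5 pairs, other pairs at -0.34 to 0.27, and 3 of 5 correlated best with their own number. This comes from the data; the labels name no shared litter or day. Alternatives were other background correction, scaling, filters, probe rules, blocks for slide and replicate, the authors' table and leaving out arrays.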

Additional observations from a re-analysis of the deposited data

Results flagged for a closer look

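In the E1 group, Nxph4 on array E1 5 was at 0.20, while the other 4 E1 arrays lay between -0.46 and -0.30. The gap was 0.77 of the group's range, above Dixon's critical value of 0.71 for 5 samples. It was the only such array among 30 groups of values checked for the 10 markers, and chance gives about 1 in 20.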

How the results depend on the processing

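The number of markers called in E1 against control (1 in the reported fit) was 3 with quantile normalization, beside 1.71% of all genes called. It was 2 with a shift by the median, beside 1.15%, and 3 in the authors' table, beside 0.934%. It was 0 with slide as a fixed or random block or with only the arrays of the 2 groups, beside 0.0153%, 0% and 0.126%. With the replicate block it was 0 over 15 arrays and 4 over the 2 groups, beside 0.0345% and 12.3%. In ELF against control (1) it was 0 with normexp background, beside 2.44% of all genes. It was also 0 with either slide block and with only the arrays of the 2 groups, beside 0.325%, 0% and 0%. With the replicate block in either form it was 0, beside 0.831% and 0%. There the pairing had no basis (correlations of -0.43 to 0.31, and -0.40 to 0.17 for ELF with E1). In ELF against E1 (0) it was 1 with slide as a fixed block, a fit that called 19.6% of all genes. Leaving out 1 array gave 0 to 3 markers in E1 against control: 3 without control 5 (Ramp3, Rgs16 and Synpo2), 2 without E1 2 and 0 in the other 8 cases. Those 8 fits called 0.0306% to 0.0842% of all genes. In ELF against control it gave 0 to 2: 2 without ELF 4 (Nxph4 and Ramp3), where 19.8% of all genes were called, 1 without control 5 or ELF 3 and 0 otherwise. The fits with 0 called 0% to 0.816% of all genes. The median marker difference in ELF against control (0.06) was -0.042 with a shift by the median, 0.17 with probes averaged and -0.033 in the authors' table. Other thalamus and habenula genes called numbered 0 of 27 in each comparison of the reported fit. In E1 against control and ELF against control they numbered 1 and 1 with normexp, beside 0.165% and 2.44% of all genes. They numbered 2 and 2 with quantile, beside 1.71% and 6.53%, and 1 and 1 with the median shift, beside 1.15% and 4.61%. In the authors' table they numbered 1 and 2, beside 0.934% and 6.08%. With a filter of all 15 arrays the number was 1 in ELF against control, beside 3.38%. With the replicate block over 2 groups it was 10 in E1 against control, beside 12.3%. With slide as a fixed block it was 5 of 27 in ELF against E1, beside 19.6% of all genes. Without 1 array it was 0 to 3 in E1 against control and 0 to 6 in ELF against control, with 6 without ELF 4 (19.8% of all genes) and 3 without control 5 (8.08%). The cause of these moves was not tested. Over all genes the calls in E1 against control were 49 in the reported fit, 446 with quantile normalization, 300 with the median shift, 1119 without control 5, 9 with the replicate block, 4 with slide as a fixed block and 0 with slide as a random block. In ELF against control they were 562, and 0 with slide as a random block. Over the 17 settings per comparison that can move a difference, the sign was kept in 169, 164 and 164 of 170 marker differences of the 3 comparisons. The endothelial and choroid plexus counts without arrays or with blocks, the ELF slides apart and slide 2 without E1 3 were alternatives chosen after seeing the data. Signal over background limits Gbx2, Shox2 and Chrnb4.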
